A study of Mus musculus with 19 samples.

Results

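The insulin-like growth factor (IGF) family was followed through 10 genes, the ligands Igf1 and Igf2, the receptor Igf1r and the 7 binding proteins Igfbp1 to Igfbp7. They were taken from the count table by gene symbol, and all 10 were found among its 54532 genes. The kidneys came from male C57BL/6J mice, 8 to 9 weeks old, that were wild type (WT) or deficient in CD5L (CD5L KO). CD5L is a protein secreted by tissue macrophages. All mice underwent unilateral ureteral obstruction (UUO), in which the left ureter is ligated and the kidney behind it becomes injured, inflamed and fibrotic. Each mouse then received daily intraperitoneal injections of PBS or of recombinant CD5L (rCD5L, 0.5 mg per mouse, produced in CHO-S cells), and RNA of the whole obstructed kidney was sequenced on day 12. The groups were WT mice given PBS (n = 5), WT mice given rCD5L (n = 5), CD5L KO mice given PBS (n = 4) and CD5L KO mice given rCD5L (n = 5). Every kidney analysed here was obstructed, and WT mice given rCD5L also had their own Cd5l gene. The 5 comparisons drawn from these groups share kidneys with each other, so that they are not independent.

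IGF-1 and IGF-2 are small secreted hormones that resemble insulin and signal through the tyrosine kinase receptor encoded by Igf1r, which activates the PI3K-AKT and MAPK pathways. The binding proteins IGFBP-1 to IGFBP-6 hold the ligands with high affinity in blood and tissue and so set how much of them reaches the receptor, while IGFBP-7 binds IGFs weakly and is known in the kidney as a marker of stressed tubular cells. In the kidney the family is known for its effects on growth of the nephron, on blood flow and filtration, and on repair after injury.

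Total counts per kidney ranged from 17917491 to 23847090. The deleted gene, Cd5l, had 0 counts in all 9 CD5L KO kidneys, which allows up to 3 counts, and 3 to 15 counts in the 10 WT kidneys. The lists of proximal tubule (9 genes), podocyte (5 genes) and thick limb and distal tubule markers (4 genes) were detected in full in every kidney. Replicate 4 among the rCD5L-treated CD5L KO mice stood apart from the other 18 kidneys. Mitochondrially encoded genes took 10.3% of its counts, against 2.34% to 4.55% in the others. Its summed proximal tubule markers reached 15159 CPM (counts scaled to a common library size after TMM normalisation), against 1013 to 2443, and its summed macrophage markers 801, against 1939 to 3164. It is called KO kidney 4, and the fold changes that rest on it are given with and without it. Every gene was tested by the quasi-likelihood method of edgeR and called at a Benjamini-Hochberg adjusted p-value under 0.05 over all genes. Igf2 was too low to be tested, so that 9 of the 10 family members entered each comparison.

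Per gene length, the levels of the family ran from Igfbp7 at the top to Igf1 at the bottom, with Igf2 counted at or near 0. Expressed as FPKM, which divides by gene length and so allows genes to be compared, Igfbp7 had a mean of 1350.1 (SD 121, n = 19) and Igfbp4 of 137 (SD 42.1). They were followed by Igfbp3 with 59.3 FPKM (SD 16.7), Igfbp5 with 30.8 (SD 5.01) and Igfbp6 with 21.0 (SD 9.13). Igfbp7, Igfbp4 and Igfbp3 kept this order in all 19 kidneys, and Igfbp3 was above Igfbp5 in all 19. Below them came Igfbp2 with 10.2 FPKM (SD 3.71), the receptor gene Igf1r with 8.14 (SD 0.938), Igfbp1 with 6.73 (SD 2.66) and Igf1 with 3.58 (SD 0.834). Neighbours in this lower part of the order overlapped. Igfbp5 was above Igfbp6 in 16 of 19 kidneys, Igfbp6 above Igfbp2 in 17, Igfbp2 above Igf1r in 14, Igf1r above Igfbp1 in 14 and Igfbp1 above Igf1 in 16. Of the summed FPKM of the 7 binding proteins, Igfbp7 made up 73.7% to 86.9% per kidney (median 84.2%). Within the 6 high-affinity binding proteins alone, Igfbp4 held a median of 51.3% and Igfbp3 of 22.0%. The binding proteins with the highest levels per length were thus Igfbp7 and Igfbp4, and Igf1 was on average lower per length than all of them. This order rests on the gene lengths used. In CPM (counts scaled by library size, not divided by length), Igf1 had a mean of 43.3. That was above Igfbp6 (28.5), Igfbp2 (23.0) and Igfbp1 (12.5) and below the other binding proteins. The place of Igf2 is uncertain because another gene covers its locus.

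**Figure D1:**
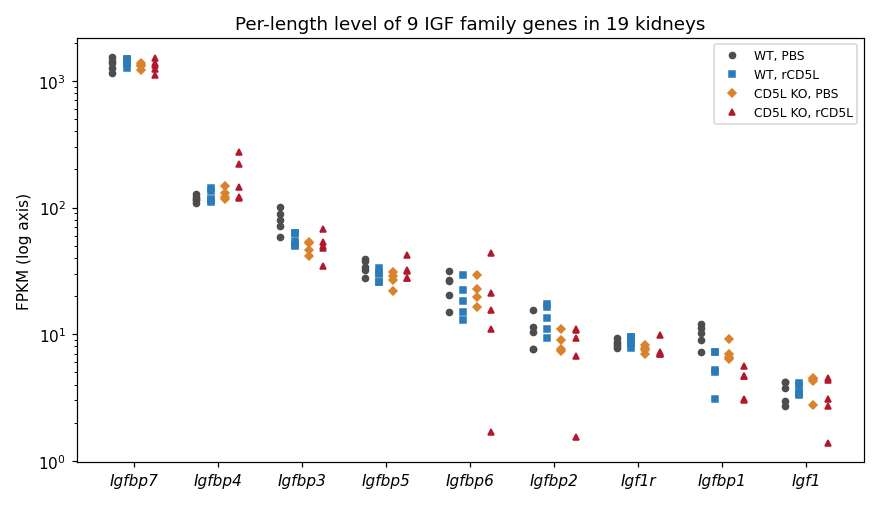
FPKM (log axis) of 9 IGF family genes, ordered by mean level, with 1 point per kidney and a colour and shape per group (19 kidneys, Igf2 left out because it was at 0 in 11 of them). Igfbp7 sits at 1106 FPKM or above in every kidney, and the points of Igfbp2, Igf1r and Igfbp1 overlap.

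Igf1 (ENSMUSG00000020053, chromosome 10 of GRCm38, 87858265 to 87937042, plus strand) encodes the main postnatal ligand, which the liver supplies to the blood and which macrophages can make in injured tissue. In WT kidneys given PBS it had 50.8, 50.2, 32.6, 45.0 and 35.8 CPM in replicates 1 to 5, and with rCD5L 41.4, 49.5, 40.3, 46.2 and 39.6 CPM. In CD5L KO kidneys it had 54.1, 55.5, 33.6 and 52.3 CPM with PBS, and 54.7, 52.3, 37.9, 17.7 and 33.2 CPM with rCD5L. The groups overlapped throughout, and the lowest of all kidneys was KO kidney 4. Igf1 was not called in any of the 5 comparisons, and its smallest unadjusted p-value, with the low-count filter, no block or offset and all kidneys kept, was 0.281, in the comparison of genotypes under PBS (log2 fold change 0.18 for CD5L KO over WT, standard error 0.162, adjusted p = 0.517). This value rested on single kidneys, since it was 0.33 without replicate 3 of the CD5L KO mice (unadjusted p = 0.0300, adjusted p = 0.157 from edgeR), 0.12 without replicate 2 of the CD5L KO mice and 0.10 without replicate 3 of the WT mice. It was 0.12 with a replicate block, and it was not called in any of these fits. Across kidneys the Pearson correlation of its log2 values with those of the macrophage markers was 0.88 over 19 kidneys and 0.74 over 18 without KO kidney 4. Its correlations with tubular markers were negative, at -0.80 and -0.61 for the thick limb and distal tubule, -0.82 and -0.48 for the proximal tubule and -0.70 and -0.57 for the collecting duct. The part of the RNA of these cell types in the values of Igf1 was not tested. Igf1os, an antisense gene, overlaps Igf1 over 5117 bases. It had 0 to 5 counts per kidney, and reads of overlapping genes cannot be told apart without strand.

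Igf2 (ENSMUSG00000048583, chromosome 7, 142650766 to 142666816, minus strand) encodes the ligand of fetal growth, an imprinted gene that is switched off in most mouse tissues after birth. It had 0 to 4 counts per kidney and 0 counts in 11 of 19 kidneys. The 4 CD5L KO kidneys given PBS held 2, 2, 2 and 3 counts, whereas the 5 CD5L KO kidneys given rCD5L held 0, 0, 1, 0 and 0. In WT kidneys the counts were 2, 0, 0, 4 and 0 with PBS and 0, 0, 1, 0 and 0 with rCD5L. These counts lie at or near the limit of 3 that a count of 0 allows, and no difference could be measured from them. On the same strand, the protein-coding gene Gm49394 covers 16048 bases of the Igf2 locus and had 0 counts in every kidney, and the antisense gene Igf2os overlaps it over 7124 bases. How reads shared by overlapping genes were counted is not given in the sources used here, so the counts of Igf2 may miss such reads and its level is uncertain.

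Igf1r (ENSMUSG00000005533, chromosome 7, 67952827 to 68233668, plus strand), the signalling receptor, varied least between kidneys after Igfbp7, with a coefficient of variation of 11.8% over 19 kidneys and 10.3% without KO kidney 4. It ranged from 158 to 191 CPM in WT kidneys given PBS, from 158 to 193 with rCD5L, from 143 to 169.6 in CD5L KO kidneys given PBS and from 143 to 212 with rCD5L. Of the 5 CD5L KO kidneys given rCD5L, 4 lay between 143 and 148 CPM, below all WT kidneys given rCD5L, and KO kidney 4 was above them all at 212. Igf1r was not called in any comparison, and its smallest unadjusted p-value, with the same settings, was 0.0569 in the comparison of genotypes under PBS (adjusted p = 0.203), where its log2 fold change was -0.14 with a standard error of 0.0665. With an offset for gene length this value was -0.01 (unadjusted p = 0.853, adjusted p = 0.936 from edgeR). Between the genotypes given rCD5L the log2 fold change was -0.19 (standard error 0.134, unadjusted p = 0.176, adjusted p = 0.439), and -0.32 without KO kidney 4 (standard error 0.0840, unadjusted p = 0.00245, adjusted p = 0.165), which was not called either. With all kidneys and the same offset it turned to 0.09 (adjusted p = 0.798).

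Igfbp3 (ENSMUSG00000020427, chromosome 11, 7206086 to 7213923, minus strand) encodes the main IGF carrier of blood. It was lower in CD5L KO than in WT kidneys given PBS. With the low-count filter, no block or offset, all kidneys kept and only the compared groups in a fit, edgeR called no other member in the 5 comparisons, while some other settings did. The call was lost with all 19 kidneys in 1 fit (adjusted p = 0.0980), and DESeq2 called 3 members here, Igfbp1, Igfbp3 and Igfbp5. WT kidneys given PBS had 272, 387, 303, 339 and 225 CPM, and CD5L KO kidneys given PBS had 161, 203, 207 and 176 CPM. Each of the 4 CD5L KO kidneys lay below all 5 WT kidneys. The log2 fold change was -0.72 (standard error 0.136, adjusted p = 0.00873 from edgeR), from a mean of 305 to 187 CPM. WT kidneys given rCD5L had 237, 241, 204, 187 and 189 CPM, and CD5L KO kidneys given rCD5L had 204, 132, 185, 274 and 189 CPM. The mean of Igfbp3 was thus highest in WT kidneys given PBS, although single kidneys of the rCD5L groups overlapped with them, and 3 of the 5 WT kidneys given rCD5L lay below all of them. In WT mice rCD5L against PBS gave a log2 fold change of -0.52 (standard error 0.122, unadjusted p = 8.19e-04, adjusted p = 0.107 from edgeR), which was not called. This comparison and the previous one share the WT kidneys given PBS. In CD5L KO mice the log2 fold change with rCD5L was 0.07 (standard error 0.192, adjusted p = 0.964), and it turned to -0.07 without KO kidney 4 (adjusted p = 0.896). The interaction of genotype and rCD5L was 0.61 on the log2 scale (standard error 0.239, unadjusted p = 0.0203, adjusted p = 0.731 in edgeR) and 0.45 without KO kidney 4 (adjusted p = 0.853), and it was not called.

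Of the 12 marker lists, 3 did not overlap between the genotypes under PBS, those of endothelium, of fibroblasts and myofibroblasts, and of urothelium. The summed level of all 7 endothelial markers, each detected in every kidney, was 600 to 679.6 CPM in WT kidneys given PBS and 498 to 572 CPM in CD5L KO kidneys given PBS, so that these groups did not overlap. The 9 fibroblast and myofibroblast markers summed to 4512 to 6808 CPM in these WT kidneys and 3195 to 4414 CPM in these CD5L KO kidneys, and the 5 urothelial markers to 20.1 to 151 and 156 to 269 CPM. With rCD5L the endothelial sum was 569 to 612 CPM in WT kidneys and 477 to 549 CPM in CD5L KO kidneys. Over 19 kidneys the Pearson correlation of log2 Igfbp3 with this sum was 0.78, and 0.81 over 18 without KO kidney 4. For the fibroblast and myofibroblast sum it was 0.19 and 0.48, and for the urothelial sum -0.33 and -0.32. Group means were not subtracted, so that differences between the groups enter these correlations. For every 100 counts of these endothelial markers, Igfbp3 had a median of 49.4 counts in WT kidneys given PBS (37.4 to 57.7) and of 34.6 in CD5L KO kidneys given PBS (31.8 to 41.5). With rCD5L the medians were 35.5 in WT kidneys (31.9 to 41.1) and 38.9 in CD5L KO kidneys (25.3 to 49.9). The part of the RNA of these cell types in the difference of Igfbp3 was not tested. In whole-kidney RNA, fewer cells of a type and less RNA per cell cannot be told apart.

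Igfbp1 (ENSMUSG00000020429, chromosome 11, 7197782 to 7202546, plus strand) encodes the short-lived binding protein whose gene insulin represses. Its level was lower with rCD5L in both genotypes, without overlap with the PBS group, but neither difference was called by edgeR with the filter on low counts in place. In WT mice it was called without that filter (adjusted p = 0.0243) and by DESeq2 (adjusted p = 0.00545). WT kidneys had 20.8, 18.9, 22.2, 16.8 and 13.4 CPM with PBS and 9.34, 9.58, 13.4, 5.60 and 13.2 CPM with rCD5L. CD5L KO kidneys had 12.5, 13.2, 17.3 and 11.9 CPM with PBS and 8.77, 5.76, 5.77, 9.27 and 10.5 CPM with rCD5L. In WT mice all rCD5L values were below all PBS values, although the highest of the former and the lowest of the latter were both 13.4 CPM after rounding. In CD5L KO mice the highest value with rCD5L was 10.5 and the lowest with PBS 11.9 CPM. The log2 fold change was -0.83 in WT mice (standard error 0.198, unadjusted p = 8.90e-04, adjusted p = 0.109 from edgeR). It was -0.79 in CD5L KO mice (standard error 0.219, unadjusted p = 0.00454, adjusted p = 0.897), and -0.84 without KO kidney 4 (adjusted p = 0.763). The difference between these 2 effects was 0.07 on the log2 scale (standard error 0.319, adjusted p = 0.968 for the interaction), and near 0 without KO kidney 4. For CD5L KO against WT, the log2 fold change was -0.43 with PBS (standard error 0.149, unadjusted p = 0.0128, adjusted p = 0.0842), where 3 of 4 CD5L KO kidneys lay below all WT kidneys. It was -0.38 with rCD5L (standard error 0.259, adjusted p = 0.434), and -0.43 without KO kidney 4 (adjusted p = 0.420). Among the marker lists, the summed level of 6 epididymis genes did not overlap between CD5L KO kidneys given PBS (8.35 to 22.6 CPM) and those given rCD5L (25.7 to 63.8 CPM). In WT kidneys it was 12.9 to 26.1 CPM with PBS and 17.0 to 41.8 CPM with rCD5L. Of these genes, Lcn8 was at 0 in most kidneys. The Pearson correlation of log2 Igfbp1 with this sum was -0.56 over 19 kidneys and -0.55 over 18, and the part of such RNA in the values of Igfbp1 was not tested.

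Igfbp1 and Igfbp3 are neighbours on chromosome 11. They lie tail to tail on opposite strands, with 3539 bases and 0 other genes of the count table between them. Over 19 kidneys the Pearson correlation of their log2 levels was 0.62, and within groups, after subtraction of the group means, 0.43. Without KO kidney 4 these values were 0.67 and 0.40. Because both had their highest mean in WT kidneys given PBS, their start regions are shown, each from 250 bases before to 50 bases after the start in RefSeq (GRCm38.p6), written 5′ to 3′ on the gene's strand. The capitals in Igfbp1 (chr11:7197537-7197836, plus strand) mark the 18 bases from CAAAACA to TATTTTG, the form of the insulin response element for which this promoter is known, 91 to 108 bases upstream of the start. The capitals in Igfbp3 (chr11:7213874-7214173, minus strand) mark a TATATA stretch close to the start.
Igfbp1: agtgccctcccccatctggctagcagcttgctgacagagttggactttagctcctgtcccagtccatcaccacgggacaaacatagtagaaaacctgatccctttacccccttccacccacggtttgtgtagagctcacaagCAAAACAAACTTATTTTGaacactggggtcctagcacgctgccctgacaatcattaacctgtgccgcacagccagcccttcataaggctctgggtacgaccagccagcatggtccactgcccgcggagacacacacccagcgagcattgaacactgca
Igfbp3: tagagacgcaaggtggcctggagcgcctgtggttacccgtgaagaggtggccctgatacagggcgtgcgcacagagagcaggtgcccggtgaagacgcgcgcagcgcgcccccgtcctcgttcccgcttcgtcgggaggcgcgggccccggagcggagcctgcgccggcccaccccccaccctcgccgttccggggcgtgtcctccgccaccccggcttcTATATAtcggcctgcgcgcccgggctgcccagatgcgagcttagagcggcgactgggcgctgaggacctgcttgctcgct
These 18 bases occur in 1 of the 32851 RefSeq windows of this length on either strand, that of Igfbp1. The 7 letters CAAAACA alone, the core bound by FOXO factors in this element, occur on either strand in 6.28% of all windows and, among the 10 family members, in Igfbp1 only. GTTAAT, a half-site of the liver and kidney factor HNF1, occurs in 7.10% of all windows and in the family only in Igfbp1. TATATA occurs in 5.67% of all windows and in the family only in Igfbp3. These matches describe the letters in a window and not the use of a site.

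**Figure D2:**
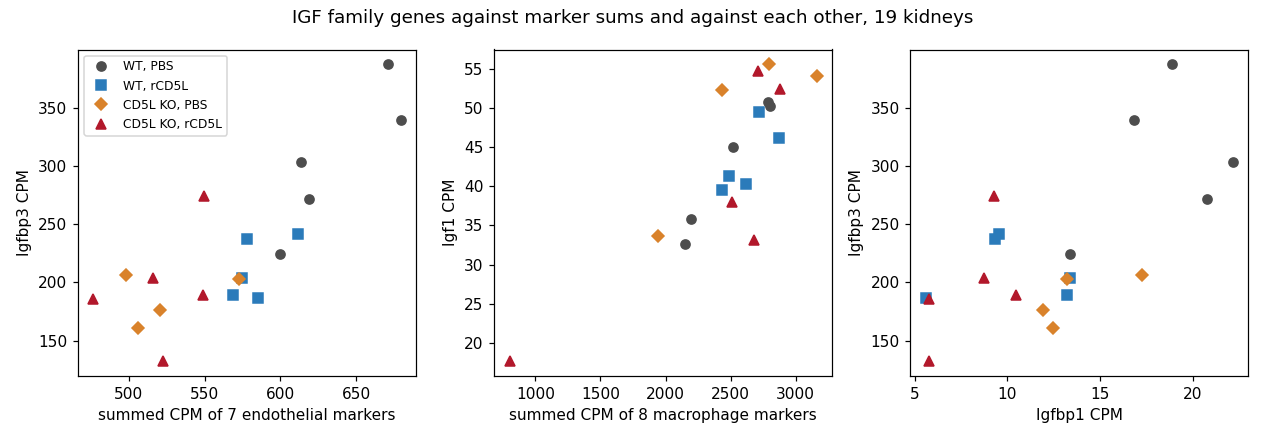
Points are the 19 kidneys, coloured by group, with all axes in CPM. The left panel plots Igfbp3 against the sum of 7 endothelial markers, the middle panel Igf1 against the sum of 8 macrophage markers, and the right panel Igfbp3 against Igfbp1. The highest 2 points of Igfbp3, at 387 and 339 CPM, are WT kidneys given PBS, and the isolated point at 801 CPM of macrophage markers is KO kidney 4, from an rCD5L-treated CD5L KO mouse.

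Igfbp5 (ENSMUSG00000026185, chromosome 1, 72857932 to 72874884, minus strand) encodes a binding protein that attaches to extracellular matrix. Its Pearson correlation with Igfbp3 was the highest of the tested members, at 0.67 over 19 kidneys and 0.73 within groups (0.68 and 0.62 without KO kidney 4). Igfbp1 was close to it over 18 kidneys, at 0.668. By Spearman correlation over 19 kidneys, Igf1r (0.649) and Igfbp5 (0.646) were about level. WT kidneys given PBS had 234, 285, 201, 274 and 247 CPM, and CD5L KO kidneys given PBS had 161, 230.2, 215 and 197 CPM. WT kidneys given rCD5L had 215, 243, 188, 186 and 219 CPM, and CD5L KO kidneys given rCD5L had 236, 201, 234, 330.4 and 205 CPM. All groups overlapped, and KO kidney 4 was the highest of all kidneys. CD5L KO against WT with PBS gave a log2 fold change of -0.31 (standard error 0.115, unadjusted p = 0.0181, adjusted p = 0.104). rCD5L against PBS gave -0.23 in WT mice (standard error 0.0927, unadjusted p = 0.0260, adjusted p = 0.242) and 0.25 in CD5L KO mice (standard error 0.176, adjusted p = 0.897), the latter 0.12 without KO kidney 4. The interaction was 0.50 (standard error 0.202, unadjusted p = 0.0216, adjusted p = 0.731) and 0.35 without that kidney, and none of these differences was called by edgeR with all kidneys kept, while DESeq2 called the first (adjusted p = 0.0476).

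Igfbp2 (ENSMUSG00000039323, chromosome 1, 72824503 to 72852474, plus strand) lies tail to tail with Igfbp5 at a distance of 5457 bases, and it encodes a binding protein that is abundant in fetal life. WT kidneys had 35.0, 23.4, 17.2, 25.5 and 17.3 CPM with PBS and 38.6, 29.8, 20.7, 36.3 and 24.3 CPM with rCD5L. CD5L KO kidneys had 20.5, 25.3, 16.9 and 17.2 CPM with PBS and 24.3, 24.7, 21.4, 3.68 and 15.2 CPM with rCD5L. With rCD5L, 3 of the 5 WT kidneys lay above all CD5L KO kidneys, and KO kidney 4 was far below the rest. Between the genotypes given rCD5L the log2 fold change was -0.76 (standard error 0.386, unadjusted p = 0.0729, adjusted p = 0.314). Without KO kidney 4 it was -0.51 (unadjusted p = 0.0240, adjusted p = 0.250), which was not called either. Although the genes adjoin, Igfbp2 and Igfbp5 had a Pearson correlation of -0.41 over 19 kidneys and of 0.16 over 18.

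Igfbp4 (ENSMUSG00000017493, chromosome 11, 99041244 to 99054392, plus strand), which encodes a binding protein that inhibits IGF action until it is cleaved by PAPP-A, was steady in 3 groups and spread widely in the fourth. It ranged from 588 to 683 CPM in WT kidneys given PBS, from 589 to 761 with rCD5L and from 634 to 812 in CD5L KO kidneys given PBS. CD5L KO kidneys given rCD5L had 780.0, 634, 1217, 1579.6 and 655 CPM. Replicates 3 and 4 of this group thus lay above every other kidney, while 2 others were within the range of the WT kidneys given PBS. Against WT kidneys given rCD5L the log2 fold change was 0.54 (standard error 0.244, unadjusted p = 0.0496, adjusted p = 0.280 from edgeR), and 0.29 without KO kidney 4 (adjusted p = 0.409). rCD5L against PBS in CD5L KO mice gave 0.46 (standard error 0.275, adjusted p = 0.897), and 0.23 without KO kidney 4, and the interaction was 0.41 (standard error 0.284, adjusted p = 0.739), and 0.15 without it. The Pearson correlation of Igfbp4 with the sum of the 9 proximal tubule markers was 0.83 over 19 kidneys and 0.55 over 18 without KO kidney 4. With the 4 collecting duct markers it was 0.76 and 0.67, and with the 7 endothelial markers -0.46 and -0.61. The part of the RNA of these cell types in the values of Igfbp4 was not tested.

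Igfbp6 (ENSMUSG00000023046, chromosome 15, 102144362 to 102149511, plus strand), which encodes a binding protein that prefers IGF-2, was the most variable member after Igf2 over all kidneys, with a coefficient of variation of 43.9% over 19 kidneys and 37.1% without KO kidney 4, when Igfbp1 was above it at 39.1%. CD5L KO kidneys given rCD5L held both extremes, with 29.0, 21.0, 60.0, 2.45 and 14.9 CPM, and the other groups lay between 17.4 and 42.9 CPM. Igfbp7 (ENSMUSG00000036256, chromosome 5, 77349240 to 77408041, minus strand) was the least variable, with a coefficient of variation of 8.37% (7.89% without KO kidney 4) and levels of 1699 to 2288 CPM. Neither gene was called in any comparison, and their unadjusted p-values were at least 0.189. Igfbp7 overlaps Polr2b on the other strand over 85 bases.

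**Figure D3:**
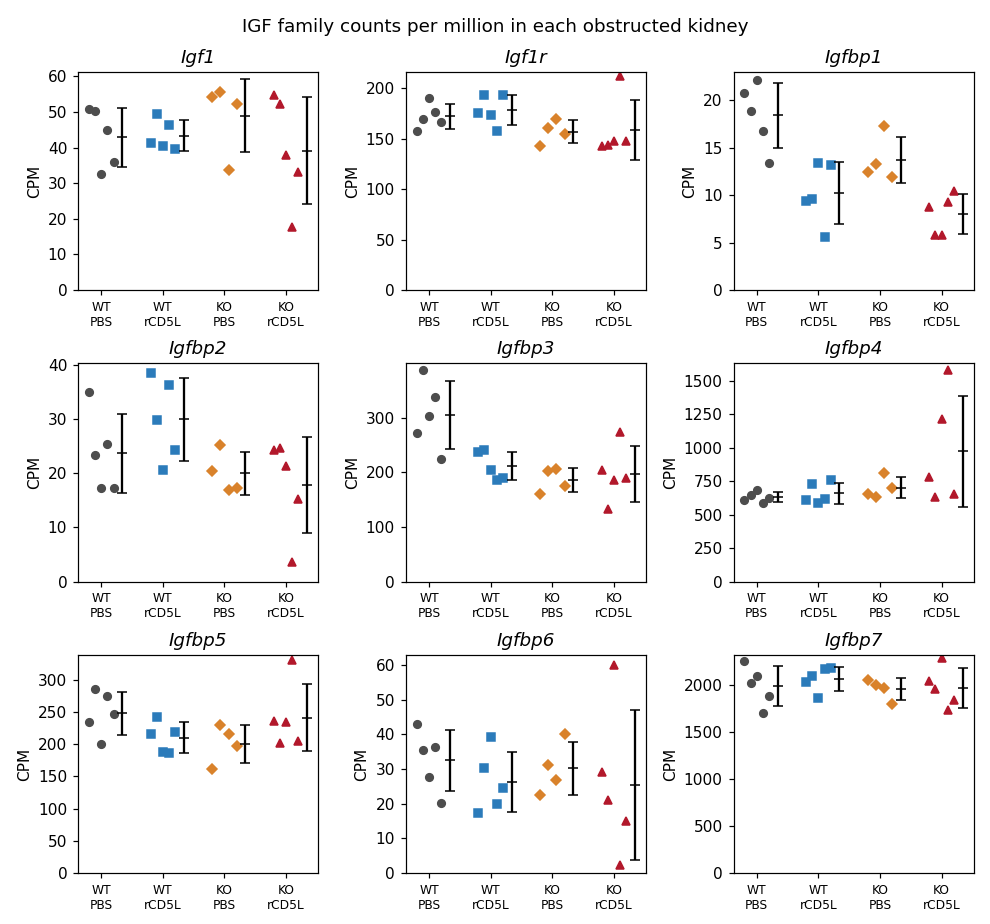
CPM of 9 IGF family genes in each kidney, with 1 panel per gene, 1 symbol per kidney in order of its replicate number, and the mean and SD of each group as a black bar (n = 4 for CD5L KO with PBS and n = 5 for the other groups). Each panel has its own axis from 0, and WT kidneys given PBS sit above the CD5L KO kidneys given PBS for Igfbp3, while both rCD5L groups sit below their PBS groups for Igfbp1.

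Counted over the family, 1 of 9 tested members was called for CD5L KO against WT under PBS, beside 10.5% of all genes tested. An unadjusted p-value under 0.05 was found for 3 of 9 members, beside 26.6% of all genes, and groups that did not overlap for 1 of 9, beside 14.1%. The median log2 fold change of the 9 members was -0.14, against 0.00 over all genes tested. These shares are near those of all genes. For rCD5L against PBS in CD5L KO mice 0 members were called, beside 0% of all genes. There, 1 of 9 had an unadjusted p-value under 0.05 (all genes 2.87%) and 1 of 9 did not overlap (2.35%), which was Igfbp1 in both cases. For rCD5L against PBS in WT mice 0 members were called (all genes 0%), 3 of 9 had an unadjusted p-value under 0.05 (16.0%) and 1 of 9 did not overlap (3.60%). Between CD5L KO and WT kidneys given rCD5L 0 members were called (all genes 0%), 1 of 9 had an unadjusted p-value under 0.05 (17.8%) and 0 of 9 had groups that did not overlap (7.52%). For the interaction 0 members were called (all genes 0%) and 2 of 9 had an unadjusted p-value under 0.05 (6.25%). Without KO kidney 4, 1 of 9 members had an unadjusted p-value under 0.05 for rCD5L in CD5L KO mice (all genes 5.54%) and 1 of 9 did not overlap (5.17%), again Igfbp1. Between the genotypes given rCD5L it was then 2 of 9 (16.2%), Igf1r and Igfbp2 in place of Igfbp4, with 1 of 9 that did not overlap, Igf1r (8.46%). For the interaction it was 2 of 9 (4.97%). DESeq2 called 3 members between the genotypes under PBS (all genes with an adjusted p 17.7%) and 2 for rCD5L in WT mice (3.79%). It called 0 for rCD5L in CD5L KO mice (0.00973%), between the genotypes given rCD5L (0.388%) and for the interaction (0%).

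**Figure D4:**
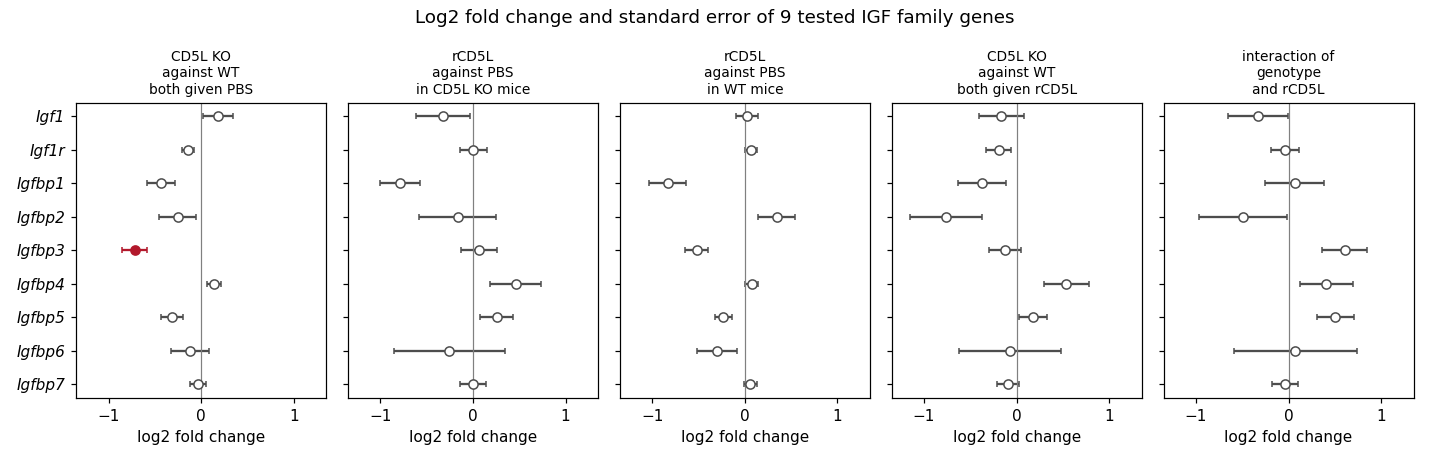
Log2 fold change (x axis) and standard error (bars) of 9 IGF family genes in the 4 comparisons between 2 groups and, in the last panel, the interaction as a difference of log2 fold changes. The filled red point is the only call by edgeR in these fits, Igfbp3 at -0.72 for CD5L KO against WT under PBS, and open points were not called.

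The other genes of the pathway were taken as a list of 57, of which 55 were tested. For CD5L KO against WT under PBS, 5 of 55 were called, all lower in CD5L KO kidneys, beside 10.5% of all genes called in either direction and 5.40% called lower. An unadjusted p-value under 0.05 was found for 17 of 55, 14 lower and 3 higher, beside 26.6% of all genes. The share of calls in the pathway list was near that of all genes. They were both subunits of the TSC complex, a brake on mTORC1, with log2 fold changes of -0.26 for Tsc2 (standard error 0.0503, adjusted p = 0.00918) and -0.25 for Tsc1 (standard error 0.0616, adjusted p = 0.0260). The adaptor Grb10, which restrains signalling by the insulin and IGF-1 receptors, had -0.40 (standard error 0.0909, adjusted p = 0.0180), from a mean of 120.3 to 91.8 CPM. Foxo3, a transcription factor that AKT keeps out of the nucleus, had -0.27 (standard error 0.0702, adjusted p = 0.0302), and Stat5b, which carries the growth hormone signal to Igf1, had -0.18 (standard error 0.0493, adjusted p = 0.0339). For each of these 5 genes, every CD5L KO kidney lay below every WT kidney. The median log2 fold change of the 55 genes was -0.04. In the other 4 comparisons, 0 of 55 pathway genes were called. The number with an unadjusted p-value under 0.05 was 2 for rCD5L in CD5L KO mice (all genes 2.87%) and 9 for rCD5L in WT mice (16.0%). It was 4 between the genotypes given rCD5L (17.8%) and 2 for the interaction (6.25%). Without KO kidney 4 it was 2 for rCD5L in CD5L KO mice (5.54%), 8 between the genotypes given rCD5L (16.2%) and 2 for the interaction (4.97%).

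The calls moved with the settings of the test. With all 19 kidneys in 1 fit, 0 members, 0 pathway genes and 12 of all genes were called for CD5L KO against WT under PBS, and the log2 fold change of Igfbp3 was -0.71. With an offset for gene length, Igfbp3 was called together with Igfbp1 (adjusted p = 0.0383), and 1 of the 5 pathway genes, Grb10, was called. Without single kidneys of these groups, the pathway calls numbered 2 to 6, beside 5.81% to 11.8% of all genes, and Grb10 and Tsc2 were among them each time. In WT mice, Igfbp3 was called lower with rCD5L, as Igfbp1 was, when no filter on low counts was used (adjusted p = 0.0210) and with DESeq2 (adjusted p = 0.00502).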

How the data were processed

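RNA of 19 whole obstructed kidneys was sequenced, and GEO's labels gave each kidney's group and replicate number. The authors used Trimmomatic to trim the paired-end reads, HISAT2 to align to GRCm38 and featureCounts to count. Versions and the strand setting are not given in the sources used here. They deposited raw counts per gene and FPKM values per gene. Every column of the tables matched a sample by name.

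The count test was the quasi-likelihood test of edgeR 4.0.16 in R 4.3.3 (TMM scaling, filterByExpr at minimum count 10), fitted to the groups compared alone, or to all 4 for the interaction. CPM used TMM-scaled library sizes, and correlations used log2 CPM with a prior count of 2. Correlations with marker sums pooled the kidneys of all groups, without subtraction of group means. The standard errors given with edgeR values were derived as the absolute log2 fold change divided by the square root of the F statistic of the test. Family members were described in every comparison where their p-value was under 0.05 or among the 3 smallest, and pathway genes where they were called. The members and lists were chosen with earlier results of these data known. Alternatives were DESeq2 1.42.0, RLE factors, other count filters, all 19 kidneys in 1 fit, a replicate block, limma 3.58.1 on log2(FPKM + 1) or log2(FPKM + 0.1), a gene length offset (lowess, span 0.3) and leaving out each kidney. Correlations without 1 kidney were added after seeing the data. The edgeR fits were checked on simulated counts. Limits for a count of 0 (3 counts) cover counting error only. All 36 pairs of kidneys of 1 group differed by more than sampling noise (chi-square per degree of freedom at least 7.07).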

Additional observations from a re-analysis of the deposited data

Results flagged for a closer look

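Of 36 sets of values, each the CPM of 1 of the 9 tested family members in 1 group, 3 had a kidney that stood far from the others by Dixon's ratio (its gap to the nearest kidney divided by the range of the group), where chance gives about 1 in 20. Igf1r in replicate 4 of rCD5L-treated CD5L KO mice had 212 CPM, against 143 to 148 CPM in the other 4 kidneys (ratio 0.923). Igfbp5 in the same kidney had 330.4 CPM, against 201 to 236 CPM (ratio 0.729). Igf1 in replicate 3 of PBS-treated CD5L KO mice had 33.6 CPM, against 52.3 to 55.5 CPM in the other 3 (ratio 0.853).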

How the results depend on the processing

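Of the log2 fold changes run under the alternatives, 3 turned their direction, and none of these was called under any of them. Their alternatives, and those of Igf1 and Igf1r under PBS, were added after seeing the data. Igf1r between the genotypes given rCD5L turned to 0.0878 with the gene length offset. Igfbp3 for rCD5L in CD5L KO mice ran from -0.0723 to 0.178 with single kidneys left out, and was -0.0723 without KO kidney 4. The interaction of Igfbp1 ran from -0.0885 to 0.186 with single kidneys left out and reached 0.199 over all alternatives. For CD5L KO against WT under PBS, the number of called members was 1 and became 3 with DESeq2, 0 with all 19 kidneys in 1 fit, and 2 with the gene length offset. Over all genes the number was 1850 and became 2570, 12 and 1305. The number of called pathway genes, 5, became 0 with all 19 kidneys in 1 fit and 1 with the gene length offset. Leaving out 1 kidney gave 1 to 2 members and 2 to 6 pathway genes, beside 1015 to 2062 of all genes. Igfbp3 was called in each of these 9 fits (adjusted p from 0.00971 to 0.0286). Igfbp1 was also called without replicate 3 of the CD5L KO mice (adjusted p = 0.0432) or replicate 5 of the WT mice (0.0337), and Igfbp5 without replicate 3 of the WT mice (0.0335). The pathway calls dropped to 2 without replicate 1 of the CD5L KO mice or replicate 4 of the WT mice, and to 3 without replicates 2 or 4 of the CD5L KO mice or replicates 2 or 5 of the WT mice, and the calls over all genes also fell in these fits, to 1015 to 1371.

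In WT mice given rCD5L against PBS, the number of called members was 0 and became 2 with DESeq2 (508 of all genes) and 2 without a filter on low counts (137 of all genes), and the pathway genes became 2 with DESeq2. Between the genotypes given rCD5L, 4 pathway genes and 1291 of all genes were called with all 19 kidneys in 1 fit. Whether the replicate numbers pair the kidneys was not settled. The correlation of deviations between same-numbered kidneys ran from -0.19 to 0.17. It was not set against that of differently numbered kidneys, so it cannot decide this. With a replicate block, 2 members (Igfbp1 and Igfbp3) and 2122 of all genes were called for CD5L KO against WT under PBS. The p-values weigh a difference against the spread between these kidneys, and groups of 4 or 5 limit which small differences can be called.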
